A study of Mus musculus with 2 samples.

Results

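Long non-coding RNAs were followed in RNA-seq of mouse ES cells and mouse forebrain, through 8 genes chosen by symbol: *Malat1*, *Neat1*, *Miat*, *Rmst*, *Sox2ot*, *Gas5*, *Snhg1* and *Snhg3*. All 8 were found among the 29311 genes of the deposited tables, and all 8 had a value above 0 in both samples. The ES cells were wild type cells of the E14 line, grown without feeder cells in serum and LIF. The other sample was the E10.5 forebrain of wild type B6CBAF1/J embryos, here called forebrain, for which the methods describe RNA from single embryos. Each cell type is represented by 1 sample, so no difference between them has a replicate check and no p-value is given. Errors are 95% intervals for the sampling of reads only, and folds compare these libraries rather than the conditions.

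Long non-coding RNAs act as RNA, and many of them stay in the nucleus. *Malat1* gathers in nuclear speckles, where splicing factors are stored, while the long form of *Neat1* is the scaffold on which paraspeckles assemble. *Miat* (also called Gomafu) and *Rmst* are nuclear transcripts known from neural cells, and *Sox2ot* is the transcript in whose intron *Sox2* lies. *Gas5*, *Snhg1* and *Snhg3* are host genes: their introns release small nucleolar RNAs (snoRNAs), which guide the modification and cleavage of rRNA, while the spliced host RNA is often short-lived.

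Values are given as the RPKM that the authors deposited. This RPKM is reads per kb of exon multiplied by a constant of each sample, and is not scaled to a fixed library total: 1 read on 1 kb gave 1.22 in ES cells and 0.819 in forebrain. Reads per gene were inferred from these steps and totalled 42780339 in ES cells and 59781584 in forebrain. The median RPKM of all listed genes was 48.9 in ES cells and 62.4 in forebrain, and that of the 3226 genes annotated as lincRNA or processed transcript was 8.99 and 10.045. All 6 ES cell markers examined (among them *Pou5f1* and *Nanog*) were at least 2-fold higher in ES cells, and all 6 forebrain markers (among them *Emx2* and *Otx2*) at least 2-fold higher in forebrain, with *Lhx2* at 0 in ES cells. The forebrain sample also held other cells. Summed RPKM of 4 blood genes was 276 in ES cells and 673751 in forebrain, with all 4 at least 2-fold higher in the latter. For 4 head mesenchyme genes, again all higher in the forebrain sample, it was 34.7 and 3918, and for 4 endothelial genes, of which 3 were at least 2-fold higher there, 602 and 1587. Of 4 markers of early neurons, 3 were higher in forebrain, but *Stmn2* was higher in ES cells (6910 and 1056). Of 4 fibroblast genes that would mark feeder cells, 3 were at least 2-fold higher in forebrain and *Thy1* in ES cells (summed RPKM 83.4 and 14141). The part of these cells in the values below was not tested, and in bulk RNA a smaller number of cells cannot be told apart from less RNA per cell.

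The sequences that bear on the values are shown first. *Snora73a* and *Snora73b*, H/ACA snoRNAs needed for early cleavage of pre-rRNA, lie within *Snhg3* on chromosome 4 (NCBIM37, minus strand, chr4:131908690-131908894 and chr4:131908237-131908441). They are shown because the reads of *Snora73a* dominate the value of *Snhg3*, with the 7 bases that differ between them in capitals, and over 205 bases they were 96.6% identical.
Snora73a: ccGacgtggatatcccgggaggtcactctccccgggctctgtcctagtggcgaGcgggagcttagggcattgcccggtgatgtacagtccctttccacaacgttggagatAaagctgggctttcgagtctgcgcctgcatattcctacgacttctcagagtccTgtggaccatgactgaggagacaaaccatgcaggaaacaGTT
Snora73b: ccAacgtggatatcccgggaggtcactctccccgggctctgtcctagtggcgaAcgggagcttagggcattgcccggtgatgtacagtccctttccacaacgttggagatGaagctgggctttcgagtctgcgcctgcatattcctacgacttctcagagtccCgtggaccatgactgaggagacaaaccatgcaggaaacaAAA

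From *Snhg1* on chromosome 19 (plus strand), 4 box C/D snoRNAs are shown because they differ in RPKM or in direction although they come from the same host. They are *Snord22* (chr19:8800356-8800481), *SNORD25* (chr19:8798486-8798550), *SNORD26* (chr19:8798741-8798815) and *SNORD27* (chr19:8799021-8799092), with each ATGA (part of box C) and each CTGA (box D) on the printed strand in capitals, whether or not it is the functional box.
Snord22: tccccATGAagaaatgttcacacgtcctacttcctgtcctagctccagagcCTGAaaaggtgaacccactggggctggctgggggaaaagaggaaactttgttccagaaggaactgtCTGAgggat
SNORD25: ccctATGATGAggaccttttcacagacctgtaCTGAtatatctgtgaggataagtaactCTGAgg
SNORD26: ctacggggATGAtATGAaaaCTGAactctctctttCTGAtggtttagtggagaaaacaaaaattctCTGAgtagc
SNORD27: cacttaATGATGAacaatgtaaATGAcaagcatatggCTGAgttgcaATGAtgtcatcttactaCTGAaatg

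From the largest exon of *Miat* (7008 bp), the stretch richest in TACTAAC is shown, at chr5:112646329-112646480 (minus strand), with the motif in capitals. TACTAAC resembles the branch point of introns, and the splicing factor SF1 and the STAR protein encoded by *Qk* are known to bind it.
Miat: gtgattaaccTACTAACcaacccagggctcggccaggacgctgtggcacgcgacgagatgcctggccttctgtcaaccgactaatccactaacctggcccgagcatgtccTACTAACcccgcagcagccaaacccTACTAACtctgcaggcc

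The exons of *Miat* hold TACTAAC 6 times on the sense strand and 0 times on the other strand. This was the highest number among the 3226 long non-coding genes, of which 3.84% hold it at all and 0.062% hold it 3 or more times. The exons of *Miat* are long, and per kb (0.685) it ranked 31. Among 156 such genes of comparable exonic length (within 2-fold of *Miat*), 12.8% hold the motif. In *Gas5* and *Neat1* it was found once each, and in the other 5 genes it was absent from the sense strand.

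On log2(RPKM + 1), 3 of the 8 genes were at least 2-fold higher in forebrain, where 25.8% of all listed genes and 31.3% of the long non-coding genes were. A further 4 were at least 2-fold higher in ES cells, compared with 23.3% of all listed genes and 25.9% of the long non-coding genes, and *Snhg1* lay within 2-fold. The median log2 ratio of forebrain over ES cells was -0.86 for the 8 genes and 0.01 for all genes. In order of RPKM, the genes in ES cells ran *Snhg3*, *Malat1*, *Snhg1*, *Gas5*, *Neat1*, *Sox2ot*, *Miat* and *Rmst*, and in forebrain *Snhg3*, *Snhg1*, *Malat1*, *Gas5*, *Miat*, *Rmst*, *Sox2ot* and *Neat1*. No neighbours in either order had overlapping intervals.

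**Figure D1:**
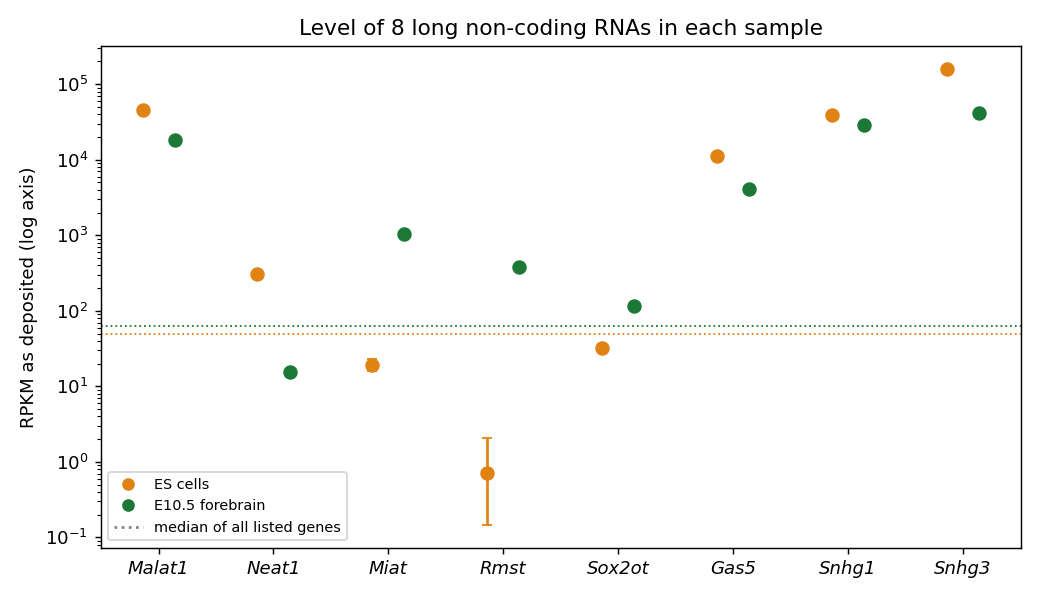
RPKM as deposited (log axis) of the 8 genes in ES cells (orange) and E10.5 forebrain (green), 1 sample each, with 95% Poisson intervals for the sampling of reads, most of which are smaller than the points. Dotted lines mark the median of all listed genes; *Miat*, *Rmst* and *Sox2ot* cross from below it in ES cells to above it in E10.5 forebrain, and *Neat1* crosses the other way.

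*Malat1* (ENSMUSG00000092341, chromosome 19, 5795690 to 5802671, minus strand) is annotated with 5 transcripts, the longest a single exon of 6982 bp. Its RPKM was 45188 in ES cells (45014 to 45362, from 258419 reads) and 18254 in forebrain (18163 to 18345, from 155595 reads). ES cells thus had the higher value by 2.48-fold (2.46 to 2.49), while *Malat1* was abundant in both samples, at rank 3 of the long non-coding genes in ES cells and rank 6 in forebrain. The genes of nuclear speckle proteins showed smaller differences. All 11 on the list lay within 2-fold under each scaling tried. Of all listed genes, 25.8% were at least 2-fold higher in forebrain and 23.3% in ES cells on the deposited scale. The 11 genes had a median log2 ratio of 0.10. They ran from -0.35 for *Srsf5*, an SR splicing factor (RPKM 2367 and 1853), to 0.64 for *Srrm2*, a core speckle protein (1059 and 1656).

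*Neat1* (ENSMUSG00000092274, chromosome 19, 5824708 to 5845478, minus strand) lies next to *Malat1*. Its RPKM was 311.7 in ES cells (303 to 320, from 5302 reads) and 15.5 in forebrain (13.97 to 17.07, from 392 reads). It was 20.2-fold higher in ES cells (18.2 to 22.4), the largest fold among the 5 genes that were higher there. It fell from percentile 72.1 of all listed genes in ES cells to percentile 36.3 in forebrain. The value spans the exonic length of 20771 bp and does not separate the long form from the short ones, since the other 3 of its 4 annotated transcripts lie within the long one.

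Most genes of paraspeckle proteins did not share the direction of *Neat1*. Of 15 such genes, 13 had the higher RPKM in forebrain, with a median log2 ratio of 0.44, compared with 0.01 for all genes. Of all listed genes, 49.3% lay below the log2 ratio of *Nudt21* (-0.0035), so all genes split nearly evenly by direction. At least 2-fold higher in forebrain were 3 of the 15 and in ES cells 0, beside 25.8% and 23.3% of all listed genes. The 2-fold count of these 15 genes in forebrain is thus no higher than the background. With samples scaled by protein-coding genes, 11 were higher in forebrain and 1 by at least 2-fold, and with samples divided by their sums 14 and 4. *Nono*, one of the core proteins, had an RPKM of 1417 in ES cells and 2877 in forebrain. Its partner *Sfpq* had 3230 and 5962, just under 2-fold. *Cirbp* had 437 and 893, and *Ss18l1* had 49.8 and 161.8. *Pspc1* and *Nudt21* were nearly level (1422 and 1461, 2197 and 2192), and *Rbm14* was higher in ES cells (1711 and 1281).

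*Frmd8*, the next protein-coding gene at higher coordinates, lies upstream of *Neat1* on the same minus strand. It had an RPKM of 557 in ES cells and 372 in forebrain, within 2-fold. Among the log2 ratios of all listed genes, *Neat1* lay at percentile 2.89 and *Malat1* at percentile 18.5.

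*Miat* (ENSMUSG00000086878, chromosome 5, 112642248 to 112657968, minus strand) has 7 exons of 8760 bp in all. Its RPKM was 19.2 in ES cells (16.2 to 22.7, from 138 reads) and 1035 in forebrain (1016 to 1054, from 11066 reads). The forebrain value was 53.8-fold higher (45.5 to 64.1), and *Miat* rose from rank 1226 to rank 60 of the long non-coding genes. Its log2 ratio of 5.68 was at percentile 98.4 of all genes. Of the proteins known to bind *Miat* or to gather with it, *Celf3*, a neuronal RNA-binding protein, had an RPKM of 11.6 in ES cells and 168.4 in forebrain, 14.6-fold apart (9.83 to 22.5). *Qk* (1642 and 1723) and *Sf1* (718 and 843) were high in both samples and lay within 2-fold.

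*Rmst* (ENSMUSG00000086180, chromosome 10, 91544491 to 91627923, minus strand) was the gene with the largest difference. In ES cells 3 reads were found (RPKM 0.71, 0.147 to 2.08), whereas forebrain had an RPKM of 380.0 (365 to 396, from 2389 reads). The ratio was 535 (183 to 2593), and its width follows from the 3 reads in ES cells. On log2(RPKM + 1) the ratio was 7.80, at percentile 99.7 of all genes, although in level *Rmst* was only at percentile 73.6 of the genes in forebrain.

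RMST is known to bind SOX2, and *Sox2* itself went the other way, with an RPKM of 7182 in ES cells and 2602 in forebrain (log2 ratio -1.46). Of its other binding partner, *Hnrnpa2b1*, the RPKM was 3089 and 2943. A lincRNA on the opposite strand, *Gm17341*, covers 38.0% of the exonic length of *Rmst*, and its RPKM was 1.25 from 2 reads in ES cells and 275.4 from 658 reads in forebrain.

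*Sox2ot* (ENSMUSG00000090828, chromosome 3, 34003360 to 34581541, plus strand) is annotated with 16 transcripts spread over the locus of *Sox2*. Its RPKM was 32.2 in ES cells (28.2 to 36.7, from 228 reads) and 114.5 in forebrain (108 to 121, from 1207 reads). It was 3.55-fold higher in forebrain (3.08 to 4.11), opposite to *Sox2*. *Sox2* lies in an intron of *Sox2ot* on the same strand, and their annotated exons share 0 bp. In ES cells *Sox2* had 14453 reads to the 228 of *Sox2ot*, and in forebrain 7805 to 1207. *Mir1897*, a miRNA gene that lies within an exon of *Sox2ot*, had 0 reads in ES cells and 55 in forebrain (RPKM 570). These reads also fall on the exon, and the values do not separate the miRNA from its host.

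**Figure D2:**
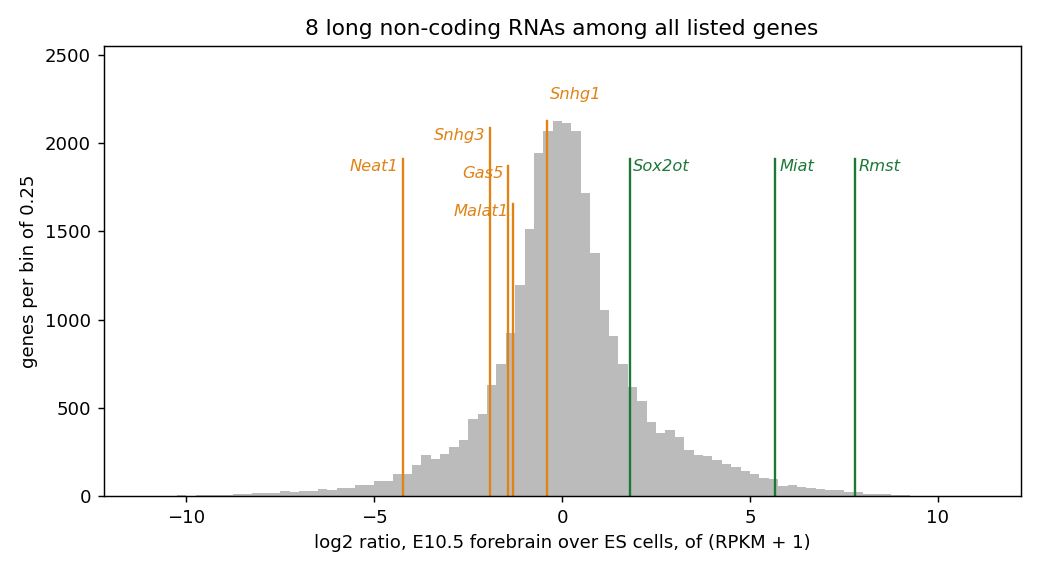
Histogram of the log2 ratio of (RPKM + 1), E10.5 forebrain over ES cells, for all 29311 listed genes in bins of 0.25, with the 8 genes as lines (orange, higher in ES cells; green, higher in E10.5 forebrain). *Rmst* (7.80), *Miat* (5.68) and *Neat1* (-4.25) lie in the tails, and *Snhg1* (-0.41) near the centre.

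*Gas5* (ENSMUSG00000053332, chromosome 1, 162964553 to 162968670, plus strand) had an RPKM of 11311 in ES cells (11192 to 11430, from 34834 reads) and 4140 in forebrain (4082 to 4200, from 19005 reads). It was 2.73-fold higher in ES cells (2.68 to 2.78). Of the proteins known to bind or control *Gas5*, the glucocorticoid receptor gene *Nr3c1* had 209.6 and 99.2, and *Upf1*, a factor of nonsense-mediated decay, had 945 and 800. *Snhg1* (ENSMUSG00000090867, chromosome 19, 8797986 to 8800932, plus strand) had 38813 (38565 to 39062, from 93687 reads) and 29117 (28941 to 29294, from 104757 reads), only 1.33-fold apart (1.32 to 1.34). *Snhg3* (ENSMUSG00000085241, chromosome 4, 131903929 to 131909601, minus strand) had the highest RPKM of the 8 genes in both samples. It was 159435 in ES cells (158566 to 160308, from 128761 reads) and 41884 in forebrain (41519 to 42251, from 50417 reads), 3.81-fold apart (3.77 to 3.85).

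These values do not measure the spliced host RNA alone. With retained introns among the annotated transcripts, the exons of *Gas5* contain all 9 of its snoRNAs, those of *Snhg1* all 8, and those of *Snhg3* contain 159 of the 205 bp of *Snora73a*. Where a snoRNA lies on an exon, its reads were taken as part of the value of the host. In *Snhg1*, the 8 snoRNAs accounted for 92.8% of the reads in ES cells and 91.5% in forebrain, on 20.9% of the exonic length, and *Snord22* alone had 81617 and 88991 reads. In *Snhg3*, the reads of *Snora73a* equalled 91.97% and 98.03% of those of the host. *Gas5* was different, with 26.7% and 24.6% of its reads on 9 snoRNAs.

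Without the snoRNA reads, which is an estimate added after the data were seen, the RPKM of the remaining *Gas5* exons was 10089 in ES cells and 3797 in forebrain, 2.66-fold apart (2.60 to 2.71). For *Snhg1* the rest was 3533 and 3127, 1.13-fold apart (1.09 to 1.17). For *Snhg3* it was 15256 and 986, and the fold rose to 15.5 (14.5 to 16.5), from 10334 and 995 reads. This last value is uncertain, as all reads of *Snora73a* were subtracted, including those on its 46 bp outside the exon, and reads of *Snora73a* and *Snora73b* cannot be fully told apart. The protein-coding gene *Rcc1*, on the same strand, also shares 135 bp of exon with *Snhg3*. Over its whole length *Rcc1* had 8132 reads in ES cells and 6258 in forebrain, and its part in the rest of *Snhg3* was not tested. On the deposited scale all 3 hosts kept the higher value in ES cells. With samples divided by their sums, however, the log2 ratio of the rest of *Snhg1* turned to 0.10, so its direction depends on the scaling.

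**Figure D3:**
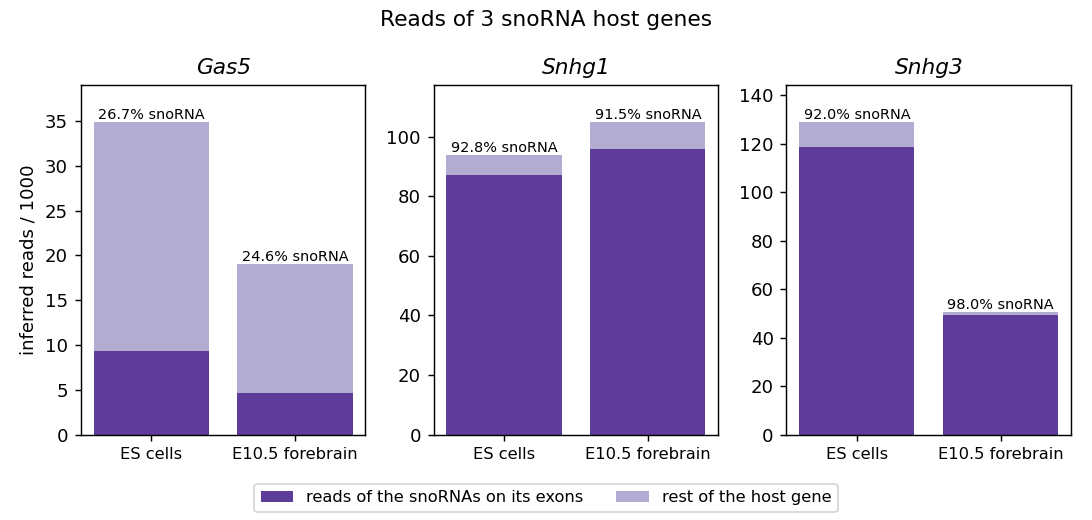
Inferred reads divided by 1000 (bars from 0, 1 sample each) of *Gas5*, *Snhg1* and *Snhg3* in ES cells and E10.5 forebrain, split into reads of the snoRNAs on their exons (dark) and the rest (light). In ES cells the snoRNA reads equal 92.8% of the reads of *Snhg1*, 91.97% of those of *Snhg3* and 26.7% of those of *Gas5*. For *Snhg3* all reads of *Snora73a* are counted, including those on its part outside the exon.

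The snoRNAs of *Gas5* moved together. All 9 were at least 2-fold higher in ES cells, with log2 ratios from -1.90 (*SNORD77*) to -1.33 (*SNORD44*). The median of these snoRNAs was -1.57, compared with -1.41 for the rest of the host. Reads of host RNA that keeps the introns would also fall on these bases. The values do not separate such reads from those of the snoRNAs, here or in *Snhg1*. How much of the likeness to the host comes from them was not tested. The RPKM of the 9 snoRNAs spread far more, from 2485 in ES cells and 946 in forebrain for *SNORD79* to 31702 and 12573 for *SNORD44*. All 9 are 60 to 84 bp long, shorter than the read length of 100 bp in the labels. How well each library recovered such short RNAs was not tested, so RPKM is not read as their abundance. Across all 747 listed snoRNA genes the median log2 ratio was -1.28, with 61.3% at least 2-fold higher in ES cells and 13.7% in forebrain, so the count in *Gas5* stands beside a high background.

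The snoRNAs of *Snhg1* did not move together. *SNORD26* had an RPKM of 15708 in ES cells (965 reads) and 35144 in forebrain (3218 reads), 2.24-fold higher in the latter (2.08 to 2.41). *SNORD25*, the first in the host, had 20022 and 25448 (1.27-fold, 1.18 to 1.37). *SNORD27*, which follows *SNORD26* in the host, went the other way. It had 17940 in ES cells (1058 reads) and 4983 in forebrain (438 reads), 3.60-fold higher in ES cells (3.22 to 4.03).

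From *SNORD27* to *SNORD31* the log2 ratio ran from -1.85 to -0.75 in the order of the host, and for *Snord22*, the last, it was -0.45. *Snord22*, which is needed for processing of the small-subunit rRNA, had by far the highest RPKM of the snoRNAs of *Snhg1*. It was 790841 in ES cells and 578518 in forebrain, 1.37-fold apart (1.35 to 1.38). In the genome, the search found 0 other places matching *SNORD25*, *SNORD26*, *SNORD27* or *Snord22* at 90% identity over at least 50% of the length. *SNORD30* had 1 such match. The search also set a strict limit on the match score, which short partial copies of these RNAs could not reach, so such copies were not excluded. The snoRNAs of *Snhg3* had 710437 and 197709 (*Snora73b*) and 705302 and 197473 (*Snora73a*), nearly the same values for both, and each is the other's only match of this kind.

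**Figure D4:**
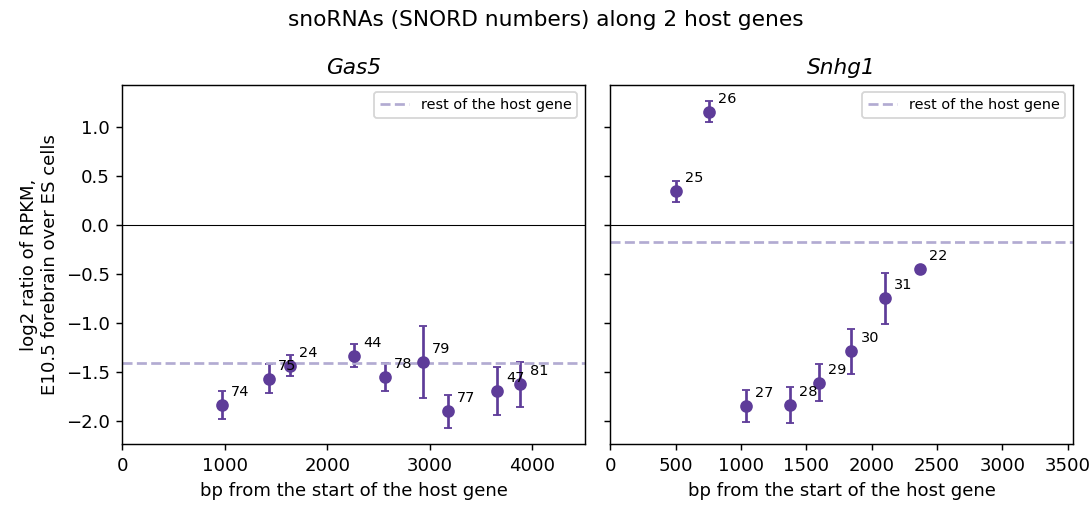
Log2 ratio of RPKM, E10.5 forebrain over ES cells, of each snoRNA against its distance (bp) from the start of *Gas5* (left) and *Snhg1* (right), with 95% intervals for the sampling of reads; numbers are SNORD numbers and the dashed line is the rest of the host. The 9 snoRNAs of *Gas5* stay between -1.90 and -1.33, whereas those of *Snhg1* run from -1.85 to 1.16.

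Other host genes of snoRNAs had the same direction as *Gas5* and *Snhg3*. Of 15 such genes on the list, which includes *Gas5*, *Snhg1* and *Snhg3*, 10 were listed in the tables, and all 10 had the higher RPKM in ES cells, as under each scaling tried. At least 2-fold was reached by 9 of the 10, with *Snhg1* the exception, beside 23.3% of all listed genes and 25.9% of the long non-coding genes. The median log2 ratio of the 10 was -1.47, compared with 0.01 for all listed genes. In 3 hosts none of the snoRNAs found within them on the same strand lies on an annotated exon. Overlap of these 3 hosts with other genes was not examined. *Snhg4* had an RPKM of 1092 in ES cells and 341 in forebrain, *Snhg5* had 5228 and 1985, and *Snhg9* had 1159 and 376. In the 7 others, 6 were still at least 2-fold higher in ES cells without the snoRNA reads. *Snhg12*, with 14746 and 4179, was the long non-coding gene closest to *Gas5* in its pair of values.

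**Figure D5:**
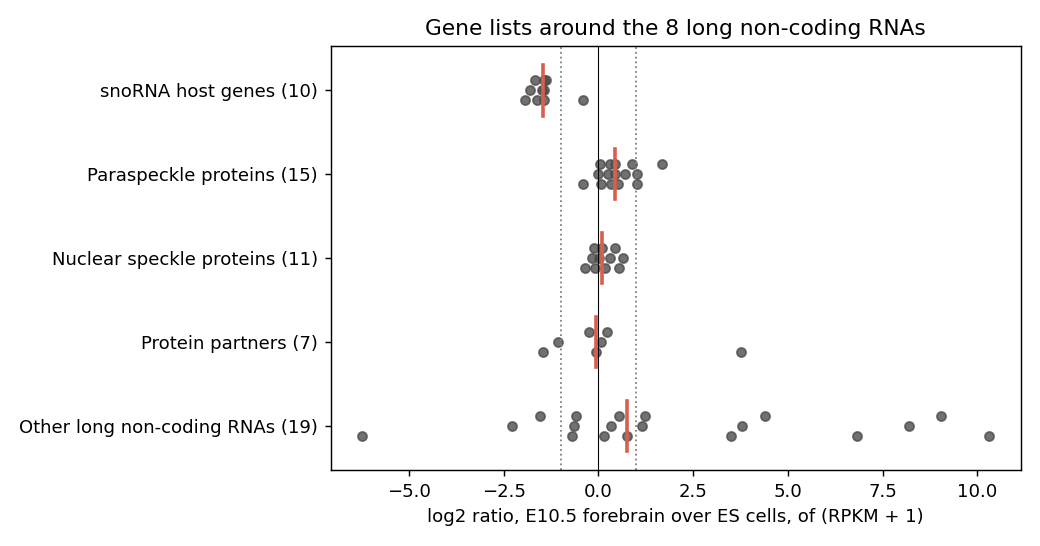
Log2 ratio of (RPKM + 1), E10.5 forebrain over ES cells, of the listed genes of 5 lists (number of genes in brackets), 1 point per gene, with the median of each list in red and 2-fold as dotted lines. All 10 snoRNA host genes lie below 0, and the other long non-coding RNAs reach from -6.24 to 10.3.

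Transcripts of the opposite strand share exonic bases with *Malat1*, *Rmst* and *Snhg3*. Within *Malat1*, a processed transcript (ENSMUSG00000092267) lies wholly on the exon of *Malat1* over 425 bp, or 6.09% of its length. Its RPKM was 44181 in ES cells and 20159 in forebrain, and its reads were 5.95% and 6.72% of those of *Malat1*. *Gm17300*, opposite to *Snhg3* and spanning both of its snoRNAs, had 245161 reads in ES cells and 99507 in forebrain, where the snoRNAs summed to 237717 and 98903. The libraries were strand-specific, but it is not stated that counting used the strand. Reads of these pairs, and of *Rmst* and *Gm17341*, therefore cannot be told apart.

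As a reference for the 8 genes, 27 other long non-coding RNAs with known names were examined, of which 19 were listed. At least 2-fold higher in forebrain were 9 and in ES cells 3, with a median log2 ratio of 0.74. Of all long non-coding genes, 31.3% and 25.9% were, with a median of 0.14. *H19*, an imprinted RNA, had an RPKM of 27.8 in ES cells and 36520 in forebrain. *Dlx6os1*, next to the *Dlx5* and *Dlx6* genes, had 0 reads in ES cells, where a floor of 3 reads stands for an RPKM of 0.752, and 289.8 in forebrain. *Lincenc1* (listed as *Gm13110*), known from naive pluripotent cells, had 183 and 1.44, and *Pvt1*, next to *Myc*, had 190 and 38.5. *Firre* had 312 and 105.5. *Pantr1* had 1 read in ES cells and 917 in forebrain (RPKM 6.17 and 3793). *Tug1* (1132 and 1651) lay within 2-fold.

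Over the 2 samples, the long non-coding genes nearest to each of the 8 on the plane of log2(RPKM + 1) were taken from the 1962 that reached an RPKM of 10 in one sample or the other. For *Rmst* this was *C230034O21Rik* (0.43 and 550) at a distance of 0.59, for *Miat* it was *Gm13507* (27.4 and 647) at 0.84, and for *Neat1* it was *Gm15055* (233 and 14.7) at 0.43. *Sox2ot* was nearest to *1700101I11Rik* (34.5 and 105.6) at 0.15. For *Malat1* and *Snhg3* the nearest gene was the overlapping transcript of the opposite strand, whose reads cannot be told apart from theirs. The same transcript opposite to *Malat1* was nearest to *Snhg1*. With only 2 samples, such pairs share levels and nothing more was tested.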

How the data were processed

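RNA-seq of 1 ES cell sample and 1 E10.5 forebrain sample was analysed. The authors isolated total RNA, removed rRNA, prepared strand-specific single-end libraries, mapped reads to NCBIM37 (mm9) and deposited 1 value per gene, called RPKM, from the HTSstation RNA-seq pipeline. The submitters' processing notes name Bowtie 0.12.7. Read length is given as 100 bp in the labels and differently in the methods, and use of strand in counting is not given in the sources used here.

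All 29311 genes matched the GENCODE annotation of the same build by identifier and coordinates. Exonic length is the union of annotated exons. The value of 1 read per kb was fitted on genes of up to 2500 bp. Of low values, 65.5% in ES cells (4739 genes) and 68.6% in E10.5 forebrain (4551 genes) lay within 0.05 reads of a whole number, where chance gives 10%. The steps of both samples multiply to 1.00. The fit was tested on simulated data. Intervals are exact Poisson (levels) and exact binomial (ratios), cover counting error only and give no p-value. Log2 ratios use log2(RPKM + 1), which understates changes of low genes.

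The members, lists and the naming rule (list genes of largest and smallest ratio, genes overlapping or next to a member, small RNAs inside them, nearest long non-coding gene) were chosen with earlier results of these data known, and of genes next to a member the text gives a selection. Alternatives were other scalings, pseudocounts, folds, filters on low values, and leaving out snoRNA reads. Scripts ran under Python 3.11.15 with pandas 2.3.3, numpy 2.4.6 and scipy 1.17.1, figures were drawn with matplotlib 3.10.9, and copies in the genome were sought with blastn 2.17.0.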

Additional observations from a re-analysis of the deposited data

How the results depend on the processing

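Of 135 alternative values, 42 came from settings added after the data were seen (scaling by total inferred reads, and leaving out snoRNA reads, alone or with each other scaling), and 1 turned a direction. Leaving out snoRNA reads and dividing by the sum of each sample together moved the log2 ratio of *Snhg1* to 0.10. The number of genes at least 2-fold higher in E10.5 forebrain (3) or ES cells (4), and of snoRNA hosts higher in ES cells (9), was the same under every scaling and pseudocount tried here. A limit of 4-fold in place of 2-fold left 2 genes higher in E10.5 forebrain (*Miat* and *Rmst*) and only 1 higher in ES cells (*Neat1*). Division by the sum of each sample moved the median log2 ratio of all genes by 0.25, and scaling by protein-coding genes by -0.11. With these scalings alone, the log2 ratio of *Snhg1* ranged from -0.54 to -0.14 and that of *Malat1* from -1.43 to -1.03. For *Rmst* the pseudocount mattered most, with log2 ratios from 6.08 to 8.87, since only 3 reads were found in ES cells. Leaving out snoRNA reads moved *Snhg3* to -3.95, and to between -4.08 and -3.68 with the other scalings. The other genes had at least 138 reads in each sample, and without replicates no spread between embryos or cultures can be given.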
